A study of Mus musculus with 12 samples.

Results

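Fn1, Tgfbi, Postn, Col12a1, Thbs1, Acta2 and Tagln encode secreted matrix proteins and contractile proteins that are textbook products of TGF-beta stimulated cells. They were followed in 12 expression arrays of mouse keratinocytes, the epithelial cells of the epidermis. These 7 of the 22180 genes with a probe set of their own are named members of a set chosen by their paraquat minus sham difference in these same arrays, seen in an earlier analysis. The paraquat changes of the 7 are therefore given as a description without a test, while the comparisons of genotypes were tested. Each of the 7 genes had 1 probe set.

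TGF-beta is stored in the matrix as a latent complex, and once released it binds receptor kinases that phosphorylate SMAD2 and SMAD3, which enter the nucleus with SMAD4 and bind target promoters. Contractile genes such as Acta2 and Tagln are also controlled by serum response factor (SRF), whose coactivator MRTF enters the nucleus when actin polymerises. In skin these proteins are best known from wound repair, where keratinocytes migrate over fibronectin and dermal myofibroblasts contract the wound.

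The cultures came from mice with floxed Atg7, a gene required for autophagy. KO cultures carried K14::Cre (Atg7 f/f K14::Cre +) and wt cultures did not (Atg7 f/f K14::Cre -), so both genotypes share the floxed alleles. The K14 promoter drives Cre in keratinocytes, and any other cell type in a KO culture would keep Atg7. Cells that were not yet confluent received 20 µM paraquat, a herbicide that generates superoxide inside cells, or a sham treatment, and RNA was taken 48 h later. The 4 groups of 3 arrays each were KO with paraquat, wt with paraquat, KO sham and wt sham. The submitters describe the 3 arrays of a group as biological replicates but the labels tie no array to an animal or culture, so p-values measure only the spread between these samples. In such bulk RNA, fewer cells of a type and less RNA per cell cannot be told apart.

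The deposited values are signals on a linear scale, with array medians of 42 to 45 over all probe sets. Signals near or below that level were not shown to be above background, and the signal of a probe set is not comparable with that of another. Atg7 read 96 to 148 in the 3 KO arrays under paraquat against 442 to 457 in wt, and 103 to 111 in KO sham against 286 to 356 in wt sham, so every array matched its genotype label. The first principal component over all genes held 64.4% of the variance and separated paraquat from sham arrays. Array 2 of the wt sham group and array 3 of the KO paraquat group lay farthest from their groups: wt sham array 2 had a score of -25.8 there, while arrays 1 and 3 of wt sham had -36.0 and -35.3, and KO paraquat array 3 scored 23.5 against 32.4 and 29.6. The wt sham array 2 was also the lowest of its group for 7 of the 7 genes, as it was for 28.8% of all genes, and KO paraquat array 3 was the highest of its group for 5 of the 7, as it was for 32.6% of all genes. Values of the 7 genes without these arrays are given beside the results that they moved most.

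The promoters of Acta2, Postn and Tgfbi were matched in the RefSeq promoter table (build GRCm38.p6), giving 4 windows for 3 of the 7 genes. They are shown because these genes were lower under paraquat together. The motifs searched were those of SRF, SMADs, AP-1 and TEAD factors, and the TATA sequence. Each sequence is the 250 bases before a start site, written 5' to 3' on the strand of the gene, and positions count back from the start. Capitals in Acta2, at chr19:34255374-34255623 on the minus strand, mark a TEAD motif (GGAATG, -146 to -141) and a pair of sequences 1 letter away from the CArG box of SRF (-84 to -75 and -34 to -25).
Acta2: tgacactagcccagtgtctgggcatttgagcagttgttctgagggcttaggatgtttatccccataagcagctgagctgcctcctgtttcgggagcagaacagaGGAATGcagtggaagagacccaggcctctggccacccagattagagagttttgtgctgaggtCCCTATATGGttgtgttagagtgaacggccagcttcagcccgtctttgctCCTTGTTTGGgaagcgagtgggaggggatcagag
In the first Postn window, at chr3:54359017-54359266 on the plus strand, capitals mark the SMAD motif CAGAC at -191 to -187.
Postn start 1: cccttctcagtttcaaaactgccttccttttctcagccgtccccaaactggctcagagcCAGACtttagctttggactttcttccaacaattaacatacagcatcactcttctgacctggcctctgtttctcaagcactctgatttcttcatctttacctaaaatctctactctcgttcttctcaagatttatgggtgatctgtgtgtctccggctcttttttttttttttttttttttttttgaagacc
In the second Postn window, at chr3:54360857-54361106 on the plus strand, capitals mark TATAAA at -26 to -21.
Postn start 2: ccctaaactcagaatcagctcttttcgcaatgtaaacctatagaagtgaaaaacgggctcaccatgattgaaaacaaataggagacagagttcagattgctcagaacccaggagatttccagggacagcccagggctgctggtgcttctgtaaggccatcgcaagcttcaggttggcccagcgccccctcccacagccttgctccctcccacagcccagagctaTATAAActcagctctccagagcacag
In the Tgfbi window, at chr13:56609336-56609585 on the plus strand, capitals mark GTCTG, the SMAD motif read on the other strand, at -239 to -235 and -85 to -81.
Tgfbi: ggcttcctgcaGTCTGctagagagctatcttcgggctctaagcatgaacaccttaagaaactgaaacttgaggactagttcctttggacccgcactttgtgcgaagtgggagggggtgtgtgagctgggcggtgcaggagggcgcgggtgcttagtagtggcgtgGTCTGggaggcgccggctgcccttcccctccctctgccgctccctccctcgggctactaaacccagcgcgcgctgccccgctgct

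Both strands were searched. Acta2 also held GTCTG at -235 to -231. None of the 4 windows held an exact CArG box or the AP-1 motif TGANTCA, which describes only these 250 bases. Of 32851 promoter windows of the same length, 42.2% held CAGAC, 12.6% held GGAATG, 12.4% held TATAAA, 6.75% held TGANTCA, 1.47% held an exact CArG box and 18.6% held one with at most 1 letter different. The rule allowing a different letter was added after the Acta2 sequence had been read. The short SMAD motif is therefore common, and the CArG-like sequences in Acta2 are a description of its letters.

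**Figure D1:**
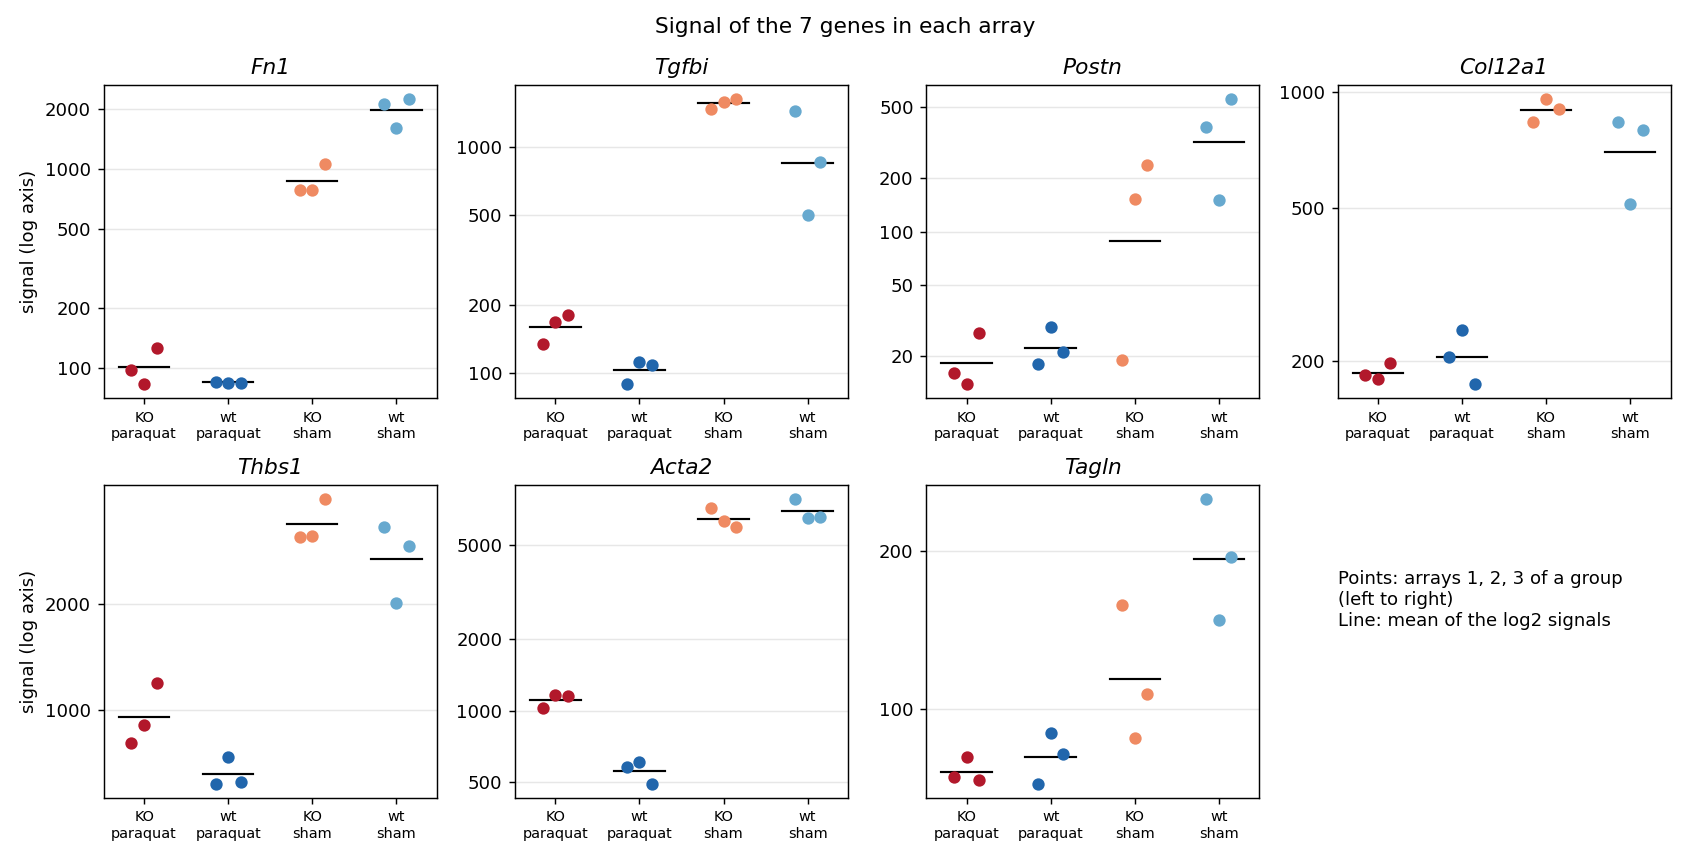
Signal on a log axis for each of the 7 genes in KO and wt keratinocytes with paraquat and in KO and wt sham cultures. Points are the 3 arrays of a group, in order of their number, and lines are means of the log2 signals. Paraquat arrays lie below sham arrays of the same genotype for every gene but Postn, where 1 KO sham array reads 19.

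Fn1 encodes fibronectin, the adhesive glycoprotein over which keratinocytes migrate. In KO cultures its signal was 97, 83 and 126 under paraquat, against 782, 783 and 1062 in sham. In wt cultures it was 85, 84 and 84 under paraquat, against 2116, 1600 and 2237 in sham. Paraquat and sham arrays were far apart in both genotypes, and wt sham arrays were the highest. On the log2 scale the paraquat difference was -3.11 ± 0.17 (SE, n = 3 per group) in KO, an 8.62-fold lower signal, and -4.54 ± 0.17 in wt, a 23.3-fold lower signal.

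Tgfbi encodes a secreted protein first found as a TGF-beta induced gene, which links collagens and integrins. The KO signal was 135, 169 and 182 under paraquat, against 1481, 1587 and 1630 in sham. The wt signal was 90, 112 and 109 under paraquat, against 1448, 500 and 862 in sham. The groups did not overlap in either genotype, but the wt sham arrays lay far from each other, with array 2 the lowest. This gave a log2 difference of -3.28 ± 0.27 in KO (9.74-fold lower) and -3.05 ± 0.27 in wt (8.28-fold lower).

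Postn encodes periostin, a matricellular protein of the same fasciclin family as Tgfbi that is abundant in healing skin. In KO cultures its signal was 16, 14 and 27 under paraquat, against 19, 152 and 238 in sham. In wt cultures it was 18, 29 and 21 under paraquat, against 385, 150 and 555 in sham. The KO groups overlapped because KO sham array 1, at 19, was below KO paraquat array 3, at 27, and all paraquat values lay under the array medians, so the size of the difference rests on values not shown to be above background. The log2 difference was -2.28 ± 0.73 in KO and -3.84 ± 0.73 in wt, the widest errors of the 7.

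Col12a1 encodes a collagen that binds the surface of collagen fibrils. The signal in KO cultures was 184, 180 and 198 under paraquat, against 837, 959 and 903 in sham. That in wt cultures was 205, 241 and 175 under paraquat, against 838, 514 and 798 in sham. The groups did not overlap. On the log2 scale they differed by -2.26 ± 0.16 in KO (4.80-fold lower) and -1.77 ± 0.16 in wt (3.41-fold lower).

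Thbs1 encodes thrombospondin-1, a matricellular protein that can activate latent TGF-beta. KO arrays read 804, 906 and 1192 under paraquat, against 3088, 3121 and 3975 in sham. The wt arrays read 616, 734 and 624 under paraquat, against 3307, 2015 and 2917 in sham. The groups did not overlap, and wt sham array 2 was again the lowest sham array. Paraquat minus sham was -1.82 ± 0.18 on the log2 scale in KO (3.53-fold lower) and -2.04 ± 0.18 in wt (4.10-fold lower).

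Acta2 encodes smooth muscle alpha-actin, the actin of myofibroblast stress fibres. In KO cultures its signal was 1026, 1160 and 1151 under paraquat, against 7137, 6287 and 5948 in sham. In wt cultures it was 579, 608 and 494 under paraquat, against 7792, 6471 and 6562 in sham. Sham arrays of both genotypes overlapped, while under paraquat all KO arrays were above all wt arrays. The log2 difference between paraquat and sham was -2.54 ± 0.11 in KO (5.80-fold lower) and -3.63 ± 0.11 in wt (12.4-fold lower).

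Tagln encodes transgelin (SM22), an actin-binding protein of contractile cells. In KO cultures its signal was 74, 81 and 73 under paraquat, against 158, 88 and 107 in sham. In wt cultures it was 72, 90 and 82 under paraquat, against 252, 148 and 195 in sham. The groups did not overlap, but in KO the highest paraquat array read 81 and the lowest sham array 88. The log2 difference was -0.59 ± 0.20 in KO and -1.26 ± 0.20 in wt (2.39-fold lower), the smallest of the 7 in each genotype.

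Across the 7 genes the paraquat difference ran from -3.28 to -0.59 in KO cultures, with a median of -2.28 beside 0.01 over all genes, and from -4.54 to -1.26 in wt cultures, with a median of -3.05 beside 0.01. The median was -2.56 in KO without KO paraquat array 3 and -3.44 in wt without wt sham array 2. In KO cultures 6 of the 7 had all paraquat arrays below all sham arrays, as had 17.3% of all genes, and in wt cultures 7 of the 7 did, as had 18.3%. Since these differences chose the genes, nothing is read from those counts. Falls of at least 2-fold in the mean were met by 1.91% of all genes in KO and 2.12% in wt. Tagln lay outside that limit in KO, with a difference of -0.59, and inside it in wt, with -1.26.

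**Figure D2:**
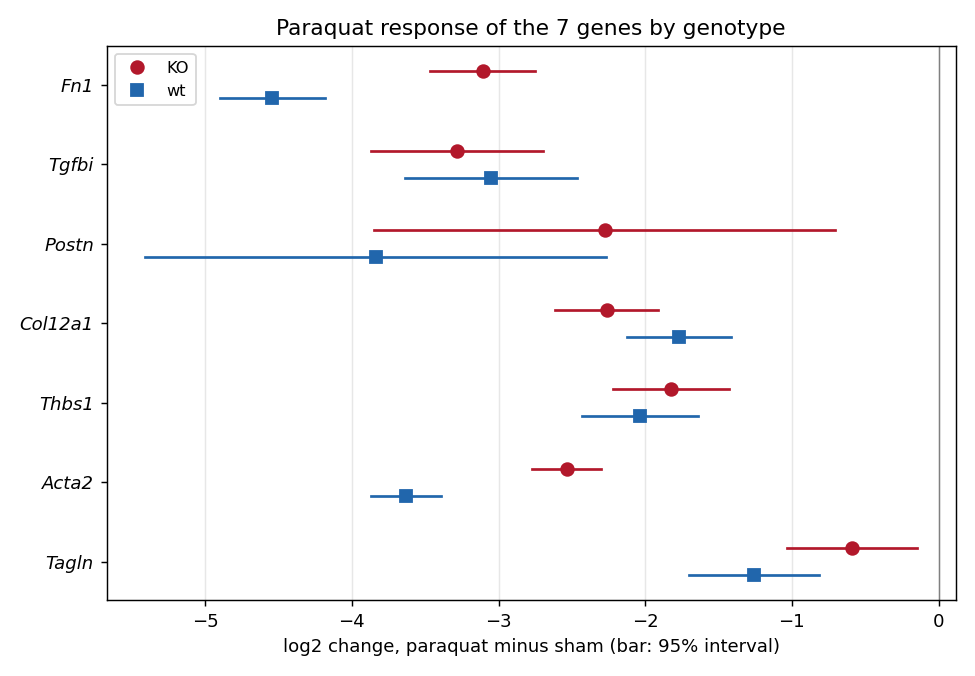
Paraquat minus sham difference of the log2 signal (horizontal axis) for each gene, in KO (circles) and wt (squares), with 95% intervals of the limma fit (n = 3 arrays per group). Intervals of Fn1 and Acta2 do not overlap between the genotypes, and Tagln lies nearest to 0 in both.

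The first comparison of genotypes was whether KO cultures differed from wt before any paraquat. Fn1 was lower in KO sham cultures and Tagln was lower by a smaller amount, while the other 5 genes did not pass the test. These 2 of 7 calls, both negative, stand beside 10.2% of all genes called, 5.67% lower and 4.58% higher. The sham arrays of this comparison also entered the paraquat differences by which the genes were known, so the calls are not independent of the choice.

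Fn1 averaged 876 ± 161 in KO sham cultures and 1984 ± 338 in wt sham cultures (SD, n = 3 each). No KO sham array reached the lowest wt sham array. The log2 difference was -1.18 ± 0.17 (SE), a 2.27-fold lower signal (limma adjusted p = 0.000715), and without wt sham array 2 it was -1.33. Tagln averaged 118 ± 36.2 in KO sham and 198 ± 52.1 in wt sham, and the groups overlapped. Its log2 difference was -0.76 ± 0.20 (limma adjusted p = 0.0309). That call was lost when wt sham array 1 or 3 or KO sham array 2 or 3 was left out, with adjusted p up to 0.134.

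Tgfbi had the opposite sign. Its mean was 1566 ± 76.7 in KO sham and 937 ± 478 in wt sham, and the lowest KO array, at 1481, was just above the highest wt array, at 1448. Such separation with KO higher was met by 10.1% of all genes, and with KO lower, as in Fn1, by 12.6%. The log2 difference of 0.87 ± 0.27 did not pass (limma adjusted p = 0.0603). The same difference passed with a filter on dim genes (limma adjusted p = 0.0323) and with a variance trend (limma adjusted p = 0.0415). It was 0.49 without wt sham array 2 (limma adjusted p = 0.184) and 1.25 without wt sham array 1 (limma adjusted p = 0.00179), so single arrays of this group moved it by more than its error.

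Postn averaged 136 ± 110 in KO sham and 363 ± 203 in wt sham, a log2 difference of -1.85 ± 0.73 (limma adjusted p = 0.143). The Col12a1 difference was 0.36 ± 0.16 (limma adjusted p = 0.214) and that of Thbs1 was 0.33 ± 0.18 (limma adjusted p = 0.328), with overlapping arrays in both genes. Without wt sham array 2 these were 0.14 and 0.12, and that of Postn was -2.39. Acta2 averaged 6457 ± 613 in KO sham and 6942 ± 738 in wt sham. Its difference of -0.10 ± 0.11 had a 95% interval of -0.34 to 0.13 (limma adjusted p = 0.65).

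Under paraquat Acta2 was the only 1 of the 7 called between the genotypes. It averaged 1112 ± 74.9 in KO and 560 ± 59.3 in wt, and every KO array was above every wt array. The log2 difference was 0.99 ± 0.11, a 1.99-fold higher signal in KO (limma adjusted p = 0.00171). Without KO paraquat array 3 it was 0.97 (limma adjusted p = 0.0142), and with the fit limited to the 6 paraquat arrays the adjusted p was 0.0564. This 1 call of 7, higher in KO, stands beside 0.55% of all genes called, 0.0992% higher and 0.451% lower in KO. The paraquat arrays of this comparison also entered the differences by which the genes were chosen. The call is therefore not independent of the choice.

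Tgfbi and Thbs1 had all KO paraquat arrays above all wt paraquat arrays as well, as had 7.94% of all genes, but did not pass. None of the 7 had all KO arrays below all wt arrays there, as 9.07% of all genes had. Tgfbi averaged 162 ± 24.3 in KO and 104 ± 11.9 in wt, a log2 difference of 0.64 ± 0.27 (limma adjusted p = 0.404). Thbs1 averaged 967 ± 201 in KO and 658 ± 65.9 in wt, a log2 difference of 0.54 ± 0.18 (limma adjusted p = 0.267). The remaining 4 genes did not pass either. Fn1 averaged 102 ± 21.9 in KO and 84.3 ± 0.577 in wt, with a difference of 0.25 ± 0.17 (limma adjusted p = 0.633), and without KO paraquat array 3 it was 0.09. The differences were -0.29 ± 0.73 for Postn, -0.13 ± 0.16 for Col12a1 and -0.09 ± 0.20 for Tagln, with limma adjusted p from 0.835 to 0.929. Without KO paraquat array 3 the values were 0.55 for Tgfbi, 0.38 for Thbs1 and -0.57 for Postn.

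**Figure D3:**
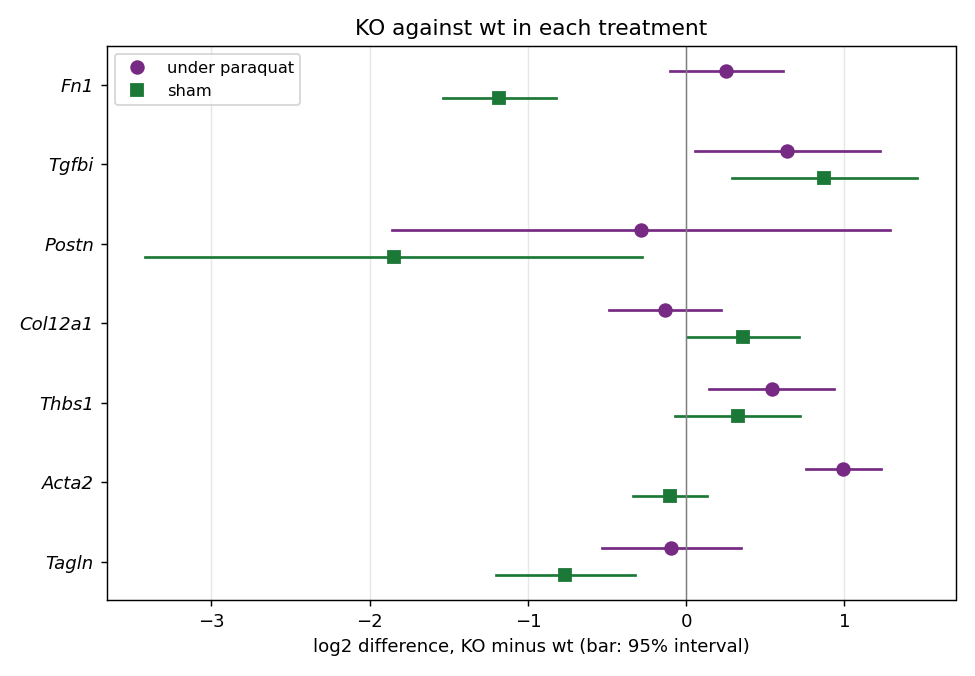
KO minus wt difference of the log2 signal (horizontal axis) for each gene under paraquat (circles) and in sham cultures (squares), with 95% intervals (n = 3 arrays per group). Fn1 lies at 0.25 under paraquat and at -1.18 in sham, and Acta2 at 0.99 under paraquat and at -0.10 in sham.

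The second question was whether the paraquat difference itself depended on the genotype, tested as an interaction of genotype and treatment over all 4 groups. Fn1 and Acta2 passed, both with a smaller paraquat difference in KO, while 2.29% of all genes were called, 1.39% positive and 0.897% negative. This comparison shares its arrays with all those above, and it is the difference of the paraquat values by which the genes were chosen, so these calls are not independent of the choice. For Fn1 the KO response exceeded the wt response by 1.43 ± 0.23 (limma adjusted p = 0.00691), and for Acta2 by 1.10 ± 0.15 (limma adjusted p = 0.00286). Both passed under all 22 other settings tried, among them leaving out each array in turn.

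The groups that differed were not those of the same treatment in both genes. In Fn1 the genotypes differed in sham cultures and did not pass under paraquat, where the KO and wt arrays overlapped at 83 to 126 and 84 to 85. In Acta2 the genotypes overlapped in sham and separated under paraquat. The other 5 did not pass: the difference of responses was 1.56 ± 1.03 for Postn (limma adjusted p = 0.524), 0.67 ± 0.29 for Tagln (0.286), 0.21 ± 0.26 for Thbs1 (0.768), -0.23 ± 0.38 for Tgfbi (0.838) and -0.49 ± 0.23 for Col12a1 (0.337). Without wt sham array 2 the Tgfbi value was 0.15. The Postn interval, from -0.66 to 3.78, spans differences as large as those of Fn1 and Acta2.

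The genes around the 7 were read from 8 lists, fixed from textbook membership with the earlier results known. Over these lists and the marker lists of cell types below, 247 of 258 entries were measured. Counts of genes called stand beside 27.1% of all genes called in KO and 29.2% in wt, that is 14.5% of all genes called higher and 12.6% called lower under paraquat in KO cultures, and 14.9% and 14.3% in wt cultures. Called genes passed limma at an adjusted p under 0.05 over all genes. The next values are log2 differences, paraquat minus sham.

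The list nearest to Acta2 and Tagln, actin, MRTF, SRF and contractile genes, fell in part and held no riser. Under paraquat 23 of 35 genes fell in KO cultures and none rose, with a list median of -0.44, and in wt cultures 23 fell and none rose, with a list median of -0.52. The KO genes with the smallest p were Fhl1 (-2.03), a LIM protein, Myl9 (-1.86), the regulatory light chain of myosin, Vcl (-1.59), vinculin of focal adhesions, Flna (-1.12), the actin crosslinker filamin A, and Tpm2 (-1.31), a tropomyosin. In wt they were Fhl1 (-2.28), Zyx (-1.48), the focal adhesion protein zyxin, Myl9 (-2.44), Flna (-1.53) and Cald1 (-1.03), caldesmon. As mean signals, Myl9 was at 152 in KO and 145 in wt under paraquat, against 565 in KO sham and 787 in wt sham. Of the 31 genes of this list with a promoter window, 11 held an exact CArG box, among them Fhl1, Myl9, Vcl and Srf. Of those 11, 9 fell in KO and 9 in wt, against 13 and 14 of the 20 without the box. The median was -0.44 with the box and -0.52 without it in KO, and -0.74 and -0.70 in wt. Neither the shares nor the medians were tested for a difference.

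TGF-beta and SMAD target genes moved both ways. In KO cultures 5 of 17 rose and 7 fell, with a list median of -0.17. In wt cultures 5 rose and 9 fell, with a list median of -0.46. In KO the leading genes were Bhlhe40 (-1.52), a clock-related repressor, Hmga2 (1.87), a chromatin protein of mesenchymal change, Junb (1.11), a subunit of AP-1, Smad7 (1.43), the inhibitory SMAD, and Itgb6 (-0.97), the integrin subunit that activates latent TGF-beta on epithelia. In wt they were Bhlhe40 (-1.96), Hmga2 (2.03), Pmepa1 (-1.05), a feedback inhibitor of SMAD signalling, Itgb6 (-1.37) and Inhba (-0.84), the activin subunit. Hmga2 and Smad7 were higher under paraquat, and Bhlhe40 and Itgb6 were lower, as were Fn1 and Tgfbi. The cause was not tested.

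Among TGF-beta ligands, receptors, SMADs and latency proteins, 4 of 20 rose and 6 fell in KO cultures, and 4 rose and 6 fell in wt cultures, with list medians of 0.01 and -0.01. In KO the leading genes were Fst (1.47), follistatin, which binds activin, Smad7 (1.43), Tgfbr1 (-0.79), the type I receptor, Ltbp4 (-0.39), a latent TGF-beta binding protein, and Ski (0.33), a SMAD corepressor. In wt they were Fst (2.29), Ltbp4 (-1.10), Inhba (-0.84), Tgfb1 (-0.66), the ligand itself, and Smad7 (1.17).

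Other collagens and matrix glycoproteins mostly did not pass: 3 of 34 rose and 10 fell in KO, and 2 rose and 11 fell in wt, with list medians of -0.02 and -0.07. The fallers were led in KO by Matn2 (-1.60), a matrilin, Col7a1 (-2.07), the anchoring fibril collagen that keratinocytes make, Tnc (-2.18), tenascin-C, Col8a1 (-1.58) and Efemp1 (-0.91), a fibulin. In wt they were led by Matn2 (-1.84), Tnc (-2.59), Col7a1 (-2.26), Col18a1 (-1.02) and Col8a1 (-1.13). Receptors of matrix proteins gave 2 of 20 risers and 6 fallers in KO, and 3 and 8 in wt, with list medians of -0.10 and -0.21. Itgb1 (-0.52), the beta1 integrin shared by fibronectin and collagen receptors, Itgb6 (-0.97), Itgb8 (-2.01), Itga1 (-0.50) and Itga4 (0.46) led in KO. Itgb6 (-1.37), Ddr2 (-2.01), a collagen receptor kinase, Itgb1 (-0.72), Itgb5 (-0.64) and Cd47 (-0.75), a thrombospondin receptor, led in wt.

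Matrix assembly and crosslinking enzymes gave 1 of 16 risers and 6 fallers in KO, and 1 and 7 in wt, with list medians of -0.17 and -0.18. Adamts1 (-1.74), a secreted protease, P4ha1 (-1.20) and P4ha2 (-1.04), which hydroxylate collagen, Colgalt1 (-0.82), which glycosylates it, and Bmp1 (-1.18), which cleaves procollagen, led in KO. Bmp1 (-1.65), Adamts1 (-1.22), Plod2 (0.87), a lysyl hydroxylase, Colgalt1 (-0.70) and P4ha1 (-0.86) led in wt. YAP and TEAD targets and partners gave 5 of 18 risers and 7 fallers in KO, led by F3 (-1.31), tissue factor, Ptpn14 (0.82), Crim1 (-1.02), Tead4 (0.95) and Wwtr1 (0.65), the YAP relative TAZ. In wt they gave 4 and 8, led by F3 (-1.20), Crim1 (-1.11), Wwtr1 (0.87), Tead4 (0.97) and Ptpn14 (0.65). Epithelial-mesenchymal transition genes gave 3 of 15 risers and 5 fallers in KO, led by Ovol1 (1.34), an epithelial repressor, and Esrp1 (-0.81), an epithelial splicing factor, with Esrp2 (0.57), Cdh1 (-0.56), E-cadherin, and Epcam (-0.63). In wt they gave 4 and 5, led by Esrp1 (-1.42), Ovol1 (1.96), Epcam (-1.09), Cdh1 (-0.64) and Snai2 (-0.51).

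**Figure D4:**
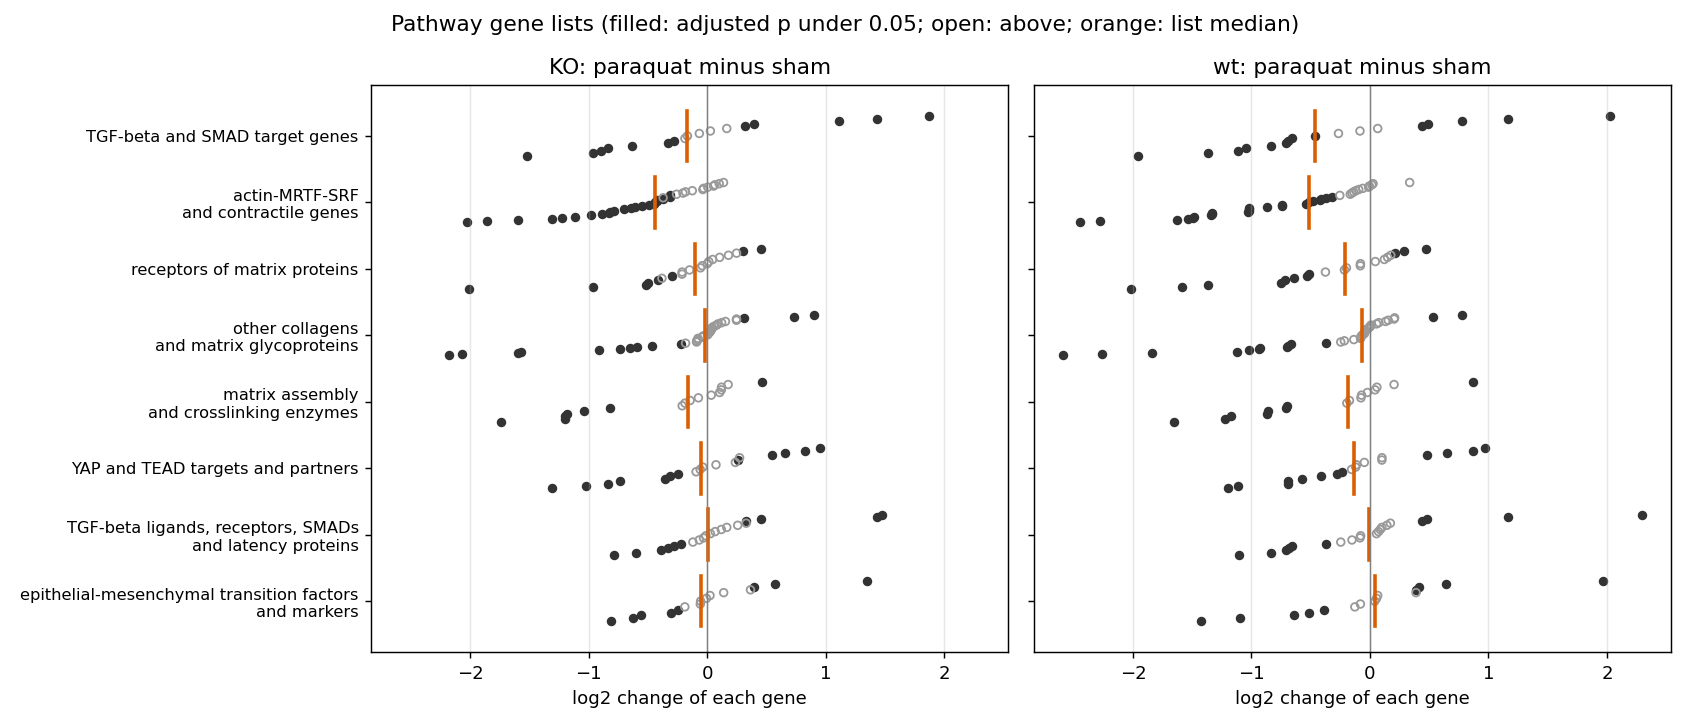
Paraquat minus sham difference of the log2 signal (horizontal axis) for each gene of the 8 lists, in KO (left) and wt (right); filled points passed at an adjusted p under 0.05 and orange bars are list medians. The actin list lies mostly below 0, and the other lists hold filled points on both sides.

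Between genotypes, the TGF-beta lists, which share genes such as Tgfb1 and Inhba, held the most calls in sham cultures. There, where 4.58% of all genes were called higher and 5.67% lower, 5 of the 17 TGF-beta targets were lower in KO and none higher: Tgfb1 (-0.46), Inhba (-0.44), Tgif1 (-0.39), Lox (-0.81), lysyl oxidase, and Pmepa1 (-0.32). The TGF-beta pathway list had 6 of 20 lower and 3 higher, led by Ltbp4 (-0.62), Fst (0.60), Tgfb1 and Ltbp3 (-0.46). The actin list had Zyx (-0.53), Myh9 (-0.31) and Cald1 (-0.26) lower and Vcl (0.59) higher. Ddr2 (-1.75) and Itgb5 (-0.36) of the receptors were lower, as were Fbln5 (-1.06), fibulin-5, and Vcan (-0.40), versican, while Efemp1 (0.68) and Col8a1 (0.58) were higher. The KO sham means of Ddr2 and Fbln5 lay below the array medians. Adamts1 (0.71), P4ha1 (0.66) and Plod2 (0.36) were higher and Lox was lower among the enzymes. Of the YAP list Dlc1 (-0.28), Wwtr1 (-0.35), Ptpn14 (-0.30) and Amotl2 (-0.37) were lower, and of the transition genes S100a4 (0.76) was higher and Esrp1 (-0.44) lower. With 1 array left out, the lower calls numbered 3 to 6 for the TGF-beta targets, 1 to 4 for the actin list and 0 to 4 for the YAP list. None was left in the YAP list without wt sham array 3. In the remaining settings the lower calls numbered 2 to 7 for the TGF-beta targets, 1 to 6 for the actin list and 0 to 6 for the YAP list. Under paraquat only Bhlhe40 (0.57) was called higher and Wwtr1 (-0.57) lower in KO. The Bhlhe40 list lost its call in 14 of 23 other settings, among them without KO paraquat array 3, and the Wwtr1 list in 6, among them without any 1 of the wt paraquat arrays or KO paraquat array 3. In the 6 lists without a call there, the genes with the smallest p were Tpm2 (0.40) and Cald1 (0.21), Itgb1 (0.29) and Itgb6 (0.37), Efemp1 (0.44) and Ecm1 (-0.26), P4ha1 (0.32) and Bmp1 (0.33), Tgfb1 (0.22) and Fst (-0.22), and Ovol1 (-0.39) and Epcam (0.29), with limma adjusted p from 0.147 to 0.494.

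The genes whose profile over the 12 arrays lay nearest to the mean of the 7 were Tnc, Pdgfb, Col7a1, Nuak1 and Igfbp2, by the root mean square difference of log2 signals centred on each gene's mean. The distances ran from 0.204 for Tnc to 0.295 for Igfbp2. Tnc averaged 283 in KO and 293 in wt under paraquat, against 1286 in KO sham and 1805 in wt sham. Pdgfb, a growth factor for mesenchymal cells, averaged 79.7 in KO and 85.0 in wt under paraquat, against 412 in KO sham and 577 in wt sham. Among the 7, the nearest pair was Col12a1 and Thbs1 (0.282), followed by Tgfbi and Acta2 (0.474), and the farthest was Postn and Tagln (1.53). Outside the 7, the genes nearest to Col12a1 were Porcn (0.214), Col7a1 (0.224) and Ctnnal1 (0.250), and those nearest to Thbs1 were Ppp2r3a (0.203), Tcim (0.208) and Bhlhe40 (0.231). The nearest to Acta2 were Pi15 (0.431), Ctsc (0.463) and Dipk1a (0.469), and to Tgfbi Mki67 (0.380), the proliferation marker, Dipk1a (0.406) and Nuak1 (0.469). Tslp (0.714) and Depp1 (0.721) followed Acta2 (0.635) for Fn1, Tmc4 (0.201), Efcab1 (0.224) and Bnc2 (0.226) were nearest to Tagln, and Tnc (1.03) and Pdgfb (1.03) followed Fn1 (0.943) for Postn. The nearest gene was farther for Fn1 and Postn than for each of the other 5.

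Because Acta2, Tagln, Fn1 and Postn are also made by fibroblasts and smooth muscle cells, marker lists of those cells were read beside them. The summed signal of 16 fibroblast markers was 913 to 947 in KO and 887 to 970 in wt under paraquat, against 1181 to 1297 in KO sham and 1002 to 1161 in wt sham, and Dcn and Lum, defining markers, read 15 to 33 and 8 to 12 over the 12 arrays. Col1a1 read 60 to 77, Col1a2 46 to 65 and Col3a1 33 to 47. In each genotype 1 of the 16 rose and 2 fell under paraquat. The mean log2 signal of the 16 was 5.40 in KO and 5.47 in wt under paraquat, against 5.42 in KO sham and 5.45 in wt sham. Fbln2 averaged 220 in KO and 171 in wt under paraquat, against 485 in KO sham and 303 in wt sham, and it fell in both genotypes, as did Fbln1. Fbln1 averaged 170 in KO and 157 in wt under paraquat, against 261 in KO sham and 249 in wt sham. Pdgfra, the riser, averaged 58 in KO and 98.7 in wt under paraquat, against 31.3 in KO sham and 35 in wt sham. The 13 smooth muscle and pericyte markers summed to 1803 to 1939 in KO and 1924 to 1966 in wt under paraquat, against 2247 to 2373 in KO sham and 2334 to 2600 in wt sham. Myh11 read 59 to 79, Des 19 to 32 and Actg2 34 to 57 over the 12 arrays, while Cnn1 read 34 to 123 and fell by 1.22 in KO and by 1.62 in wt. In KO 1 of the 13 rose and 3 fell, and in wt 2 rose and 3 fell. Mcam averaged 562 in KO and 576 in wt under paraquat, against 920 in KO sham and 975 in wt sham, and fell in both genotypes, as did Cspg4, at 43 in KO and 49.3 in wt under paraquat, against 60.7 in KO sham and 97.7 in wt sham. Notch3 rose in KO, at 235 under paraquat against 154 in sham. The part of such cells in the results was not tested.

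Of the basal keratinocyte markers, Krt14 read 8933 to 11102 and Trp63 801 to 1068 in the 12 arrays, while Krt15 read 21 to 41 and was not above the array median in any. Summed marker signals differed between paraquat and sham groups. The 9 basal markers summed to 18785 to 20089 in KO and 17521 to 18098 in wt under paraquat, against 22451 to 24389 in KO sham and 21818 to 24210 in wt sham. Of these 9, 4 fell in KO and 6 in wt, and none was called higher. The mean of Itga6 was higher under paraquat, at 2804 in KO and 2449 in wt, against 2610 in KO sham and 2107 in wt sham. The 10 suprabasal markers summed to 7634 to 9331 in KO and 10457 to 11462 in wt under paraquat, against 5351 to 6187 in KO sham and 6788 to 8074 in wt sham. Of these 10, 6 rose and 3 fell in KO and 5 rose and 3 fell in wt. Ivl averaged 1325 in KO and 1823 in wt under paraquat, against 264 in KO sham and 276 in wt sham. Krt1 was lower, at 114 in KO and 173 in wt under paraquat, against 352 in KO sham and 448 in wt sham. So was Krt10, at 127 in KO and 160 in wt under paraquat, against 214 in KO sham and 246 in wt sham. Of the same 10, 3 were called lower in KO than in wt under paraquat, beside 0.451% of all genes. In sham 5 were called lower, beside 5.67% of all genes, and none was higher in either. With the fit limited to the 6 paraquat arrays, only 3 of all genes were called between the genotypes. The part of these marker differences in the lower Fn1, Acta2, Tgfbi and other signals was not tested.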

How the data were processed

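Total RNA of keratinocyte cultures was amplified and hybridised to 12 Affymetrix arrays. The authors' deposited values are RMA signal intensities on a linear scale, rounded to whole numbers, and the submitters' processing notes name RMA and Affymetrix Expression Console 1.3.1.187. The genome build is not given in the sources used here. Of 41345 probe sets, 23521 had 1 gene symbol, 1814 several and 16010 none, and the highest-mean probe set stood for each of 22180 genes. Here the log2 of each intensity was fitted with limma 3.58.1 (R 4.3.3): 1 mean per group over all 12 arrays (8 residual degrees of freedom), moderated 2-sided tests, Benjamini-Hochberg adjustment over all genes and an adjusted p threshold of 0.05. The number of arrays limits the precision. Simulated data had independent normal noise with 1 spread per gene, and only genes with a mean above the median gene were changed. There 96 to 98 of 100 genes changed 2-fold were recovered in the 4 comparisons of group pairs and 82 in the difference of responses. At 1.5-fold 67 to 80 and 38 of 100 were. Changes in dimmer genes and arrays lying apart from their group were not simulated. The 7 genes, the 8 gene lists, the 7 marker lists and the tests were chosen with earlier results of these data known. Genes named were the 7, the called genes of each list with the lowest p (at most 5, or 2 by value where none was called), Atg7, and the nearest profiles (5 to the mean of the 7 and 3 to each), with genes named only by clone or prediction, small RNAs and olfactory genes left out of the last. Marker genes printed singly and the genes whose mean signals are printed were chosen after their values were seen. Same-numbered arrays of different groups did not deviate together (r from -0.072 to 0.09), so replicate numbers were not used. Alternatives were another normalization, centring, a filter on dim genes, 16 added before log2, other choices among probe sets, a variance trend, array weights, fits of fewer arrays and a replicate block. Promoters are from RefSeq, with 250 bases before each start site searched.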

Additional observations from a re-analysis of the deposited data

Results flagged for a closer look

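For the results here the paraquat response differed between KO and wt by the interaction test of the limma fit over all genes, which called 2.29% of all genes. Values are the KO response minus the wt response on the log2 scale. For Fn1 the difference was 1.43 (limma adjusted p = 0.00691) and for Acta2 1.10 (limma adjusted p = 0.00286), both described above and both built from the paraquat values by which these genes were chosen. Of the actin genes, Zyx gave 0.78 (limma adjusted p = 0.00532) and Cald1 0.48 (limma adjusted p = 0.0342). The mean Zyx signal was 415 in KO and 351 in wt under paraquat, against 677 in KO sham and 979 in wt sham.

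The collagen receptor kinase Ddr2 gave 2.19 (limma adjusted p = 0.00183), with mean signals of 36.3 in KO and 27 in wt under paraquat, against 32.3 in KO sham and 112 in wt sham. Only the wt sham mean of Ddr2 lies above the array medians. Fbln5 gave 1.17 (limma adjusted p = 0.0129), with mean signals of 48.7 in KO and 45.3 in wt under paraquat, against 41 in KO sham and 87 in wt sham. All Fbln5 means but that of wt sham lie near the array medians. Of the TGF-beta pathway, Tgfb1 gave 0.68 (limma adjusted p = 0.00691), Ltbp4 0.71 (limma adjusted p = 0.00604), Ltbp3 0.61 (limma adjusted p = 0.0234) and Fst -0.82 (limma adjusted p = 0.00329). Of the transition genes, S100a4 gave -0.83 (limma adjusted p = 0.0134) and Esrp1 0.61 (limma adjusted p = 0.0204).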

How the results depend on the processing

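Across 23 other settings, 12 of which left out 1 array, the values of the 7 genes changed sign 2 times. Both concerned the difference of responses of Tgfbi, never called, which was 0.15 without wt sham array 2 and 0.064 without that array and KO paraquat array 3, and ran from -0.61 to 0.15 with 1 array left out. The median paraquat difference of the 7 genes was -3.44 in wt and -2.56 in KO without both of those arrays, and ran from -3.44 to -2.67 in wt and from -2.56 to -2.22 in KO with 1 array left out. Genes called between KO and wt sham numbered 2273, against 976 with only the 6 arrays compared and 1360 without both arrays. With 1 array left out they numbered 1418 (without wt sham array 2) to 2363, KO sham array 2 giving 1494. There the 7 genes held 1 call with 6 arrays and 1 to 2 with 1 array left out. They held 3 with a filter on dim genes or with a variance trend, where Tgfbi passed too. Genes called between KO and wt under paraquat numbered 122, against 228 with a filter on dim genes, 231 with 16 added, 223 with a variance trend, 249 with array weights, 3 with 6 arrays, 44 without both arrays and 30 to 171 with 1 array left out (30 and 38 without wt paraquat array 1 or 2, 53 and 35 without KO paraquat array 2 or 3). Acta2 was lost there with 6 arrays, leaving 0 of the 7 called. Genes called for the difference of responses numbered 508, against 894 with the filter, 882 with 16 added, 783 with the trend, 268 without both arrays and 250 to 700 with 1 array left out, with 250 to 333 without any 1 of the paraquat arrays, wt sham array 3 or KO sham array 2. With the replicate block 6250, 5805, 2014, 117 and 439 genes were called for the wt response, the KO response, the sham genotypes, the paraquat genotypes and the difference of responses, and no call between genotypes or responses changed for the 7 genes, while the lower calls in sham fell to 1 in the actin list and 1 in the YAP list and Bhlhe40's list lost its call under paraquat. Fewer arrays make these fits less precise, and otherwise the cause was not tested.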

Other observations

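Markers of cell types not considered above were also read. Of all genes 14.5% were called higher and 12.6% lower under paraquat in KO, and 14.9% and 14.3% in wt. Of 7 melanocyte markers 4 rose under paraquat in KO and 4 in wt, led by Mlana at 2.36 in KO and 2.57 in wt (log2 difference). Their summed signal was 885 to 938 in KO and 894 to 965 in wt under paraquat, against 451 to 497 in KO sham and 382 to 468 in wt sham. Mlana alone averaged 358 in KO and 379 in wt under paraquat, against 69.7 in KO sham and 64.3 in wt sham. Tyr read 7 to 12 and Sox10 30 to 55 over the 12 arrays. Of 8 endothelial markers 2 rose in KO and 3 in wt, led by Kdr at 1.38 in KO and 2.21 in wt, while Emcn read 12 to 14 and Cdh5 28 to 36 in all arrays. Of 8 leukocyte and Langerhans cell markers 2 rose and 1 fell in KO and 3 rose and 1 fell in wt. They were led by Cd68, a lysosomal protein, at 1.05 in KO and 1.64 in wt, while Ptprc read 13 to 21 in all arrays. Whether the numbers of these cell types differed was not tested.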
